A study of Mus musculus with 2 samples.

Results

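The gene 2610528A11Rik, listed in RefSeq with the synonym Gpr15l, is 1 of the 379 genes of a mouse tissue panel that was read in place in back skin with Xenium In Situ, a method that decodes individual transcripts by their position in a tissue section. It was chosen for its high ratio between the treatments, so that ratio and the levels behind it are descriptions without a test. Its members are its decoded transcripts in both sections whose quality score was 20 or more. They numbered 73 in mock and 9532 in SspA+HDM. Both sections were 5 µm thick and came from formalin-fixed whole dorsal skin of C57BL/6 mice that had been shaved and depilated. The skin was taken on day 7 after PBS on the skin (mock) or SspA and HDM together on the skin (SspA+HDM), agents that the labels do not spell out. There was 1 section per treatment and each held 2 strips of skin. The labels do not say how many animals the strips came from, so strips are given side by side as parts of a section, not as replicates, and every interval below is a 95% interval for counting error only.

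2610528A11Rik encodes a small secreted peptide, the ligand of the G protein-coupled receptor GPR15. The receptor is carried by subsets of T cells and takes part in their homing to barrier tissues, and the peptide is made by epithelial cells of the skin and the large intestine. In skin the epidermis renews from a basal layer next to the dermis, through spinous cells, to the granular cells under the surface, and the outer wall of each hair follicle is continuous with it. Gpr15 itself was not on the panel, so cells with the receptor could not be seen. Cells with a transcript of Cd3d, a subunit of the T cell receptor complex, were used to mark T cells.

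Over the whole section the gene was low in mock and at a middle level in SspA+HDM. In mock, 57 of its transcripts lay inside cell outlines, which is 24.5 CPM (CPM, counts per 1000000 panel transcripts in cells, interval 18.6 to 31.8), and the gene ranked 292 of 379 by level. In SspA+HDM, 9324 lay inside outlines, which is 1176 CPM (1152 to 1200), and it ranked 126. The ratio was 48.0 (37.0 to 63.4), or 5.58 on the log2 scale, the fourth highest of the 346 genes that reached 100 transcripts in mock or in SspA+HDM. Among those 346 genes the median log2 ratio was 0.05, and 51 (14.7%) exceeded their mock level by 2-fold or more. The 2 mock strips gave 21.8 and 27.0 CPM, and the 2 SspA+HDM strips gave 1143.5 and 1203 CPM. Levels of the 2 strips of a section lay close together, and the gap between sections follows from the choice of the gene by its ratio. The SspA+HDM strips held more cells, and per mm of strip the gene had 4.09 transcripts in cells in mock and 607 in SspA+HDM.

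Few mock cells held the gene, and none held much of it. In mock, 55 of 15932 cells (0.345%) had at least 1 transcript and are called positive here, and the most in any cell was 2. In SspA+HDM, 5312 of 46142 cells (11.5%) were positive, 3269 of them with 1 transcript, 2043 with at least 2, 263 with at least 5 and the fullest with 16. The 162 control features of each table gauge general false decoding, not false signal particular to this gene. The highest control feature had 34 transcripts in mock and 127 in SspA+HDM, below the gene's 73 and 9532. The gene passed the quality minimum less often than most of the panel, with 52.2% of its SspA+HDM transcripts at 20 or above against 78.1% of all gene transcripts, and 73 of 146 in mock. Just under the minimum, at scores of 18 to 20, it had 334 transcripts in SspA+HDM and 2 in mock, and just above it, at 20 to 22, it had 429 and 2. It lay over the nucleus more often than the panel, at 48.4% of its SspA+HDM transcripts in cells against 31.6%.

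**Figure D1:**
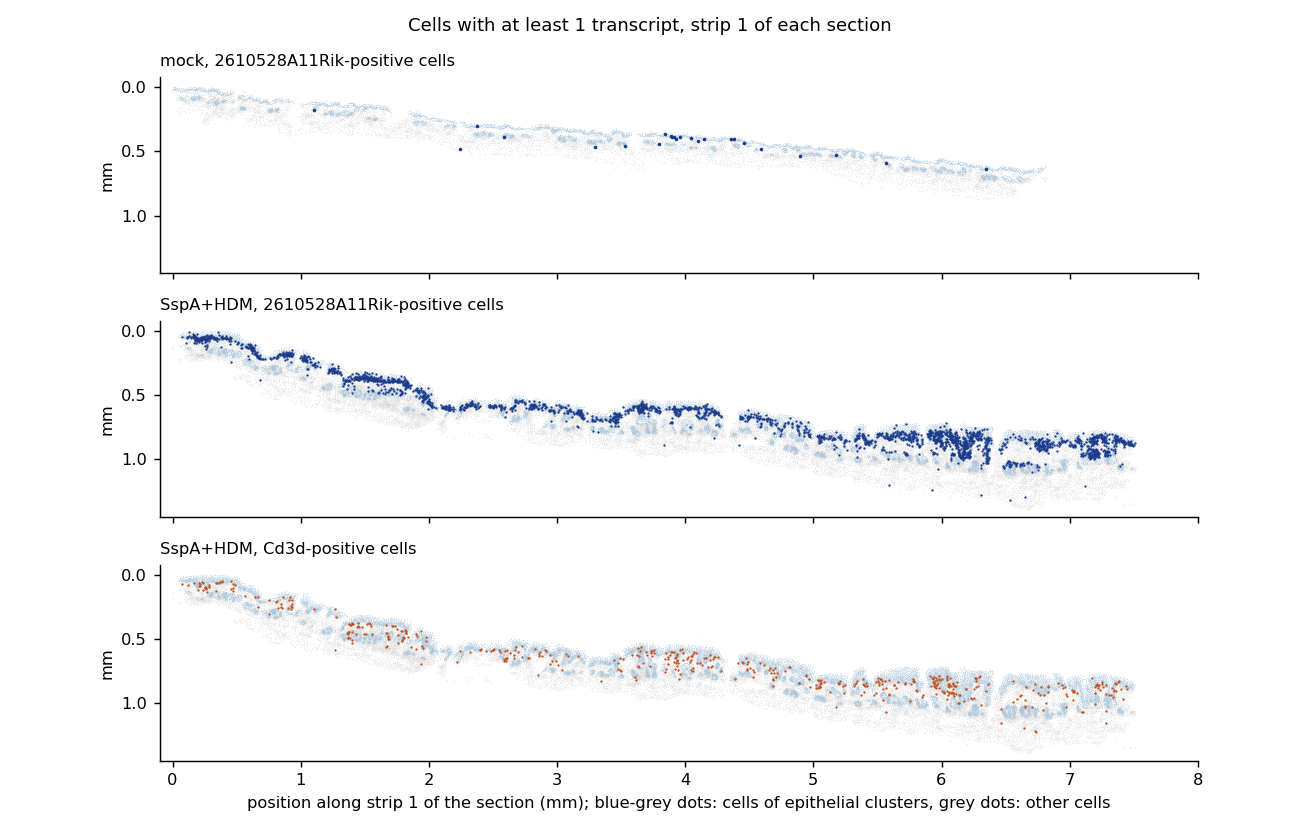
Cells of strip 1 of the mock section (top) and of the SspA+HDM section (middle and bottom), by position in mm, with the vertical and horizontal axes to the same scale. Dark dots are cells with at least 1 transcript of 2610528A11Rik (top and middle) or of Cd3d (bottom), blue-grey dots are other cells of epithelial clusters and grey dots are the remaining cells. In SspA+HDM the positive cells form a nearly continuous band below the surface with groups reaching into follicles, and in mock they are few.

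To place the transcripts in cell types, cells with at least 20 transcripts were grouped into 25 clusters on the panel without 2610528A11Rik. Clusters with high shares of keratinocyte genes were called epidermis-led, or follicle-led where Lhx2, Tbx1, Sox9 and Krt79, genes of the hair follicle, took at least 4% of their transcripts. In SspA+HDM, 11187 epidermis-led cells held 7418 of the gene's transcripts (79.6%) at 2237 CPM (2187 to 2289), and 35.2% of these cells were positive. A further 11840 follicle-led cells held 1470 (15.8%) at 864 CPM, with 8.35% positive. The 21177 cells of the 11 other clusters with at least 100 cells held 408 (4.38%) at 142 CPM, with 1.75% positive. Cells of clusters 5 and 6, led by the skeletal muscle genes Pvalb and Actn3, should lack the gene and were positive in 0.337% and 0.549% of cases at median depths of 230 and 333 transcripts. Cluster 20, which passed the muscle markers too but was led by Kcna1 and Gatm, was positive in 1.59% of 883 cells, at 189 CPM (103 to 317). After every cell was thinned to 100 transcripts, 20.7% of epidermis-led cells were positive in SspA+HDM and 0.386% in mock, where the unthinned share was 0.945%. Thinning left out 1163 and 687 cells with fewer transcripts.

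In mock the epidermis-led cells also had the highest level, and the other classes could not be ordered. Mock epidermis-led cells held 33 transcripts (53.8 CPM, 37.0 to 75.6), follicle-led cells 7 (16.9 CPM, 6.80 to 34.9) and all others 17 (13.2 CPM, 7.67 to 21.1), with 0.189% and 0.204% positive in the last 2. The ratio of SspA+HDM to mock was 41.6 (29.6 to 60.5) in epidermis-led cells, 51.1 (24.7 to 127) in follicle-led cells and 10.8 (6.66 to 18.7) in the rest, so the intervals of the 2 epithelial classes overlapped. Mock cells of muscle clusters 5 and 6 were at 15.4 CPM (4.19 to 39.4) and 2.20 CPM (0.056 to 12.2), from 4 and 1 transcripts. The mock interval of follicle-led cells overlapped both of these, and that of epidermis-led cells overlapped the interval of cluster 5. By strip, epidermis-led cells were at 40.6 and 66.05 CPM in mock and at 2133 and 2324 CPM in SspA+HDM. The intervals of the 2 SspA+HDM strips, 2060 to 2208 and 2254 to 2395 CPM, did not overlap. Different clusters held the epidermis in the 2 sections, clusters 10 and 23 in mock and clusters 3, 7, 12 and 15 in SspA+HDM, so this comparison is between mixtures of cells. Where 1 cluster held cells of both sections the gene could be set side by side within it. In follicle-led cluster 4 it was at 45.7 CPM in 694 mock cells, from 3 transcripts, and at 2905 CPM in 2927 SspA+HDM cells, a ratio of 63.6 (21.7 to 309). In epidermis-led cluster 10 it was at 59.8 CPM in 2439 mock cells and at 2243 CPM in only 38 SspA+HDM cells, from 8 transcripts, a ratio of 37.5 (14.7 to 85.3). Follicle-led cluster 13 had a ratio of 19.65 (3.50 to 778), from 1 mock transcript. In follicle-led cluster 18, with 1268 mock and 482 SspA+HDM cells, the gene had 3 and 2 transcripts and a ratio of 1.23 (0.103 to 10.7), so no difference was detectable there at this depth.

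Within the SspA+HDM epidermis the level stepped down from the cells with basal genes to the cells with granular genes. Cluster 3 was led by Cstdc4, Aqp3, Wnt3, Rbp2 and Col17a1. It had the most Col17a1, the gene of a collagen that anchors basal cells to the basement membrane, of the 4 main clusters of this epidermis, but its leading genes also included granular genes and it was left unnamed. Its 4215 cells held 4399 transcripts, 47.2% of those in cells, at 5738 CPM (5570 to 5910), and 51.0% were positive. Cluster 7, led by Cstdc4, Stfa2l1, Rbp2 and Calm5, held 2355 transcripts in 2824 cells at 2852 CPM (2738 to 2970), with 43.8% positive. Cluster 15, led by Stfa2l1, Calm5, Ivl and Uox, was at 507 CPM with 16.6% positive. Cluster 12, with Cnfn and Lor, genes of the cornified envelope, was at 269 CPM (237 to 305) with 10.1% positive. The order 3, 7, 15, 12 was also that of the median distance of their cells from non-epithelial cells, 24.3, 38.5, 51.9 and 70.6 µm, and the intervals of the 4 levels did not overlap. In the same order their cells held more panel transcripts, with medians of 168, 278, 392.5 and 413.5. CPM divides by panel transcripts, so the steps per cell were smaller than those in CPM.

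**Figure D2:**
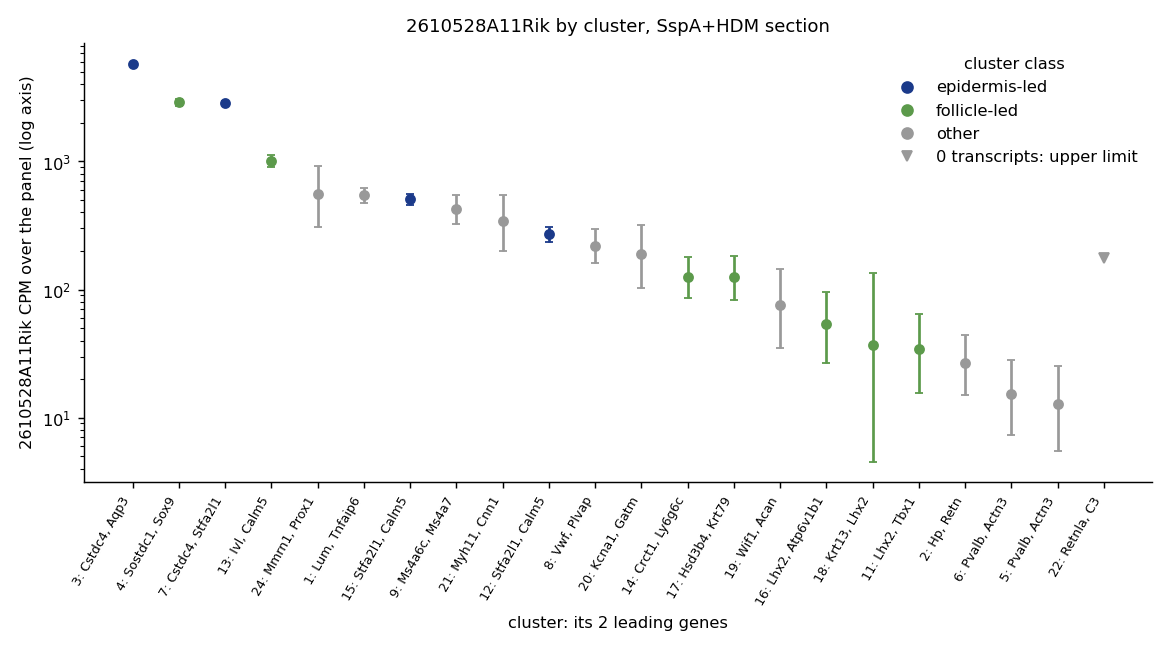
Level of 2610528A11Rik in the SspA+HDM section by cluster, in CPM over the panel on a log axis, for the clusters with at least 100 cells there. Points are the level, bars the 95% Poisson interval of the count, the triangle the upper limit for a cluster with 0 transcripts, and each cluster is labelled with its number and 2 leading genes. Cluster 3 is highest at 5738 CPM, clusters 4 and 7 lie together at 2905 and 2852 CPM, and clusters 2, 5 and 6 are the lowest with any transcript.

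Follicle-led clusters differed widely among themselves. Cluster 4, led by Sostdc1, Sox9, Vsnl1 and Aqp3 with Col17a1 and Krt79 among its leading genes, held 1027 transcripts at 2905 CPM (2730 to 3089), and 22.5% of its cells were positive. Cluster 13, led by Ivl, Calm5 and Rbp2 and with Krt79, was at 1011 CPM with 14.2% positive. Cluster 14, led by Crct1, Ly6g6c and Cd36, was at 126 CPM. The 3 clusters with Lhx2, a transcription factor of the hair germ and bulge, among their leading genes (11, 16 and 18) were at 34.2 (15.7 to 65.0), 53.9 (26.9 to 96.5) and 37.1 CPM (4.49 to 134). Muscle clusters 5 and 6 were at 12.8 (5.51 to 25.1) and 15.2 CPM (7.31 to 28.0). The gene in follicles was therefore carried by clusters 4 and 13, which held 1027 and 362 of the 1470 follicle-led transcripts.

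Over all non-epithelial clusters together, positive cells lay nearer to epithelial cells than negative ones did, but not within every cluster. In SspA+HDM, 370 positive cells of non-epithelial clusters had a median distance of 14.8 µm to the nearest epithelial cell, against 27.0 µm for 20807 negative cells, and 50.8% against 29.3% lay within 15 µm. Within clusters the medians were 13.6 and 16.2 µm in cluster 1 and 14.45 and 18.75 µm in the blood endothelial-like cluster 8, but 41.7 and 41.4 µm in the adipocyte-like cluster 2 and 135 and 100 µm in muscle cluster 5. Of 6622 such cells more than 50 µm from any epithelial cell, 28 (0.423%) were positive. Muscle clusters 5 and 6 made up 2220 and 1789 of these far cells and held 7 and 9 of the positive ones. The far share is thus in large part that of muscle itself. Among far cells of clusters 1, 8 and 9, 3 of 112 (2.68%), 0 of 260 and 1 of 239 were positive. Cluster 1, led by Lum and Tnfaip6 and with monocyte genes, was at 545 CPM with 3.71% positive, and its cells also carried 2995 CPM of Col17a1. The macrophage-like cluster 9 was at 428 CPM and carried 2133 CPM of Col17a1. How much of the gene in these cells came from neighbouring outlines was not tested. None of the 257 SspA+HDM cells of fibroblast-like cluster 22 had a transcript, which, with 3 counts as the floor, allows a share of cells with a transcript of up to 1.17%.

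Transcripts per positive cell were few and unevenly spread. In cluster 3, 1085 of 2149 positive cells had 1 transcript, 512 had 2, 395 had 3 or 4 and 157 had at least 5. Those 157 cells held 21.98% of the cluster's transcripts. Only 10 cells of the section had 10 or more transcripts, 8 in cluster 3 and 2 in cluster 7. Positive cells of cluster 3 were also larger in outline and deeper in transcripts than negative ones, with medians of 67.7 and 55.7 µm2 and of 195 and 139 transcripts. The part of depth and size in the gene ratios between positive and negative cells was not tested.

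Measured in µm, the gene lay in the lower epidermis, a little above the level of Col17a1. Each cell's distance from the dermis was taken as that to the third nearest cell of a non-epithelial cluster. In SspA+HDM epidermis-led cells the gene was at 4079 CPM at 10 to 15 µm, 5244 CPM at 15 to 20 µm and 5573 CPM at 20 to 25 µm. It was at 4509 CPM at 25 to 30 µm and 3095 CPM at 30 to 40 µm, and then at 1840, 1120, 850 and 280 CPM in bands up to 50, 60, 80 and 120 µm. The level was thus highest between 15 and 25 µm, and both strips had this order, with 5477 and 5658 CPM at 20 to 25 µm and 265 and 291 CPM at 80 to 120 µm. The median distance of its transcripts was 31.3 µm. That of the basal gene Col17a1 was 23.9 µm, that of Aqp3, a water and glycerol channel of lower keratinocytes, 33.7 µm, and that of all panel transcripts 47.2 µm. Genes of later stages lay farther out, with Krt16, a stress keratin, at 51.7 µm, the envelope gene Ivl at 57.6 µm, Lor at 65.5 µm and Cnfn at 68.9 µm.

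Depth from the outer surface gave the same picture. The level was 221 CPM within 10 µm of the surface, 422 CPM at 10 to 20 µm, 1123 CPM at 20 to 30 µm, 2542 CPM at 30 to 40 µm and 4026 CPM (3879 to 4178) at 40 to 60 µm. The level at 40 to 60 µm was 13.05 times that in the outer 20 µm (11.6 to 14.8). This ratio is one of CPM, and panel transcripts per cell differ with depth. The share of positive cells, which is not divided by panel transcripts, was 8.97% within 10 µm and 46.0% at 40 to 60 µm. Deeper bands up to 150 µm stayed between 3475 and 3628 CPM. In mock, bands of the thinner epidermis-led layer held between 1 and 15 transcripts each, at 36.3 to 68.4 CPM, with intervals that all overlapped, so no order across the mock layer was detectable at this depth. In both directions of measurement every SspA+HDM band was above every mock band with transcripts, a gap tied to the choice of the gene by its ratio. In cluster 4 the level did not fall steadily with depth, at 4789 CPM down to 60 µm, 3015 CPM at 60 to 100 µm, 1844 CPM at 100 to 150 µm, 3922 CPM at 150 to 200 µm and 3571 CPM at 200 to 400 µm.

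**Figure D3:**
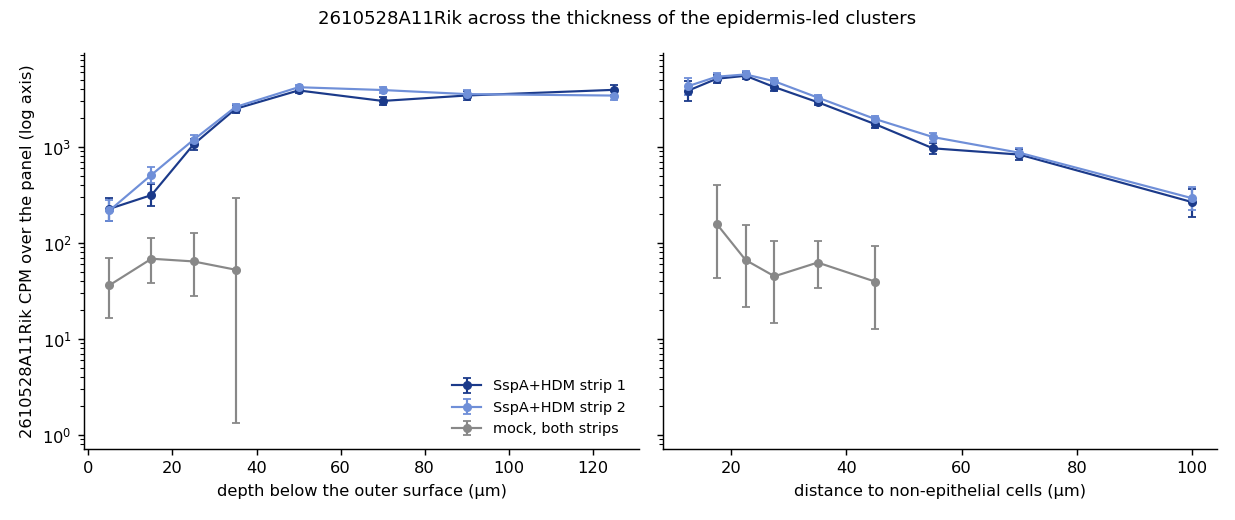
Level of 2610528A11Rik in epidermis-led cells, in CPM over the panel on a log axis, by depth below the outer surface (left) and by distance to non-epithelial cells (right), both in µm. Points are band levels with 95% Poisson intervals, for bands with at least 50 cells and 1 transcript, for each SspA+HDM strip and for both mock strips together. Both SspA+HDM strips are lowest at the surface, at 226 and 217 CPM, and highest at 20 to 25 µm from non-epithelial cells.

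Along the SspA+HDM strips the level in cluster 3 varied by more than its counting error, and it varied alike in both strips. In 200-µm windows of strip 1 it ran from 631 to 13345 CPM with a median of 5675 over 38 windows, and in strip 2 from 819 to 14634 CPM with a median of 6326. The lowest window of each strip lay at 6.4 to 6.6 mm from its left end, with 8 transcripts in 56 cells and 11 in 57. The highest of each lay at 1.4 to 1.6 mm, with 139 transcripts in 43 cells and 153 in 47. The correlation of the log2 level between strips at the same position was r = 0.857 over 38 windows, given without a test because the strips may be neighbouring cuts of 1 specimen. In cluster 4 it was 0.704 over 27 windows, with the highest window of both strips at 6.0 to 6.2 mm, where the level was 6878 and 6427 CPM against strip medians of 2220 and 2427 CPM. Some regions were high in both clusters, such as 0.2 to 0.4 mm, where cluster 3 was at 11347 and 11247 CPM and cluster 4 at 5469 and 5507 CPM in the 2 strips. Others were not, such as 1.4 to 1.6 mm, where cluster 3 was highest and cluster 4 was at 335 and 1434 CPM.

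**Figure D4:**
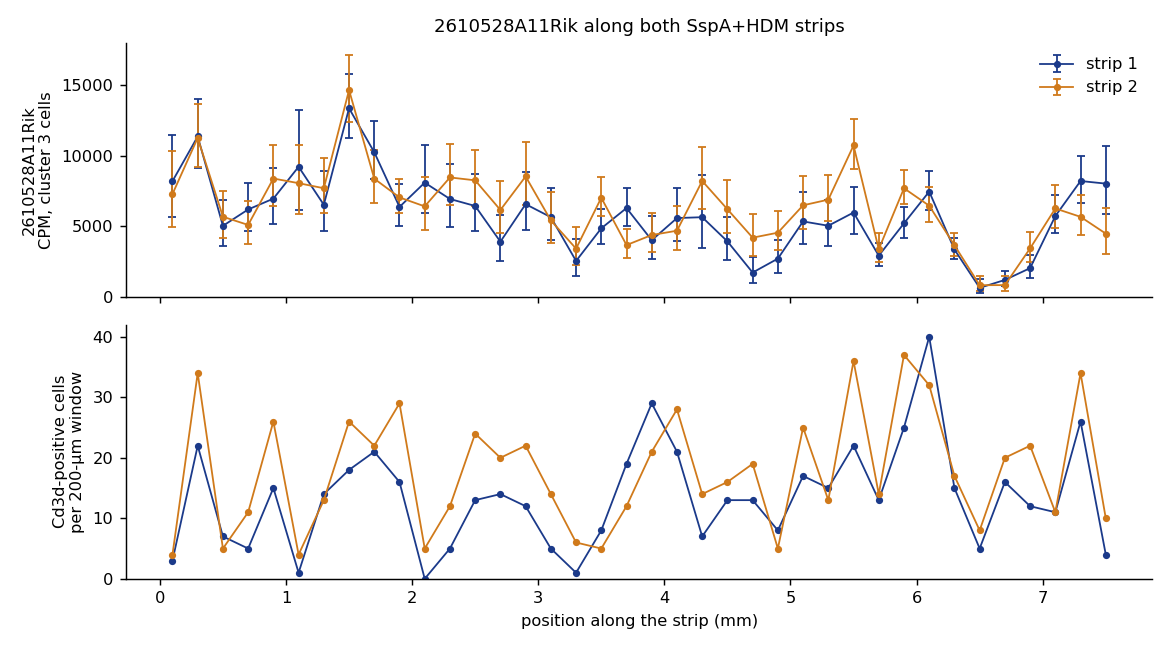
Level of 2610528A11Rik in cluster 3 cells (top, CPM over the panel, with 95% Poisson intervals) and number of Cd3d-positive cells (bottom) in 200-µm windows along both SspA+HDM strips, by position in mm, for windows with at least 20 cluster 3 cells. Both strips peak at 1.4 to 1.6 mm and are lowest at 6.4 to 6.6 mm, and the count of Cd3d-positive cells has r of 0.044 and 0.200 with the level.

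The low stretch from 6.4 to 7.0 mm, picked after the values were seen, was set beside the rest of each strip. In it, cluster 3 was at 1272 and 1628.5 CPM in the 2 strips against 5921 and 6594 CPM elsewhere, and 19.9% and 23.7% of its cells were positive against 51.5% and 57.1%. The cells were as deep there, with medians of 183.5 and 183 transcripts against 164 and 168. Their Col17a1 level was 72779 and 69781 CPM against 69239 and 69360 CPM elsewhere. Aqp3 was higher there, at 79742 and 78935 CPM against 55222 and 52886 CPM, and so was Areg, the gene of the epidermal growth factor receptor ligand amphiregulin, at 3281 and 3479 CPM against 1516 and 1636 CPM. Wnt3, a signalling ligand, was lower, at 1919 and 1604 CPM against 3044 and 3067 CPM. In cluster 7 the gene differed less, at 1975 and 2043 CPM in the stretch against 2712 and 3185 CPM elsewhere.

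Over each whole strip, positive cells had more positive neighbours than negative cells did. Among the 5 nearest cells of cluster 3, 56.8% and 59.9% were positive around positive cells of the 2 strips, against 41.5% and 46.4% around negative cells. In cluster 7 these shares were 49.1% and 54.3% against 35.7% and 41.0%. In cluster 4 they were 37.7% and 38.7% against 18.1% and 17.8%, the largest gap of the 3 clusters. In mock, 6 and 10 of 35 windows of the epidermis-led layer in the 2 strips held any transcript. The fullest mock windows had 5 transcripts at 3.8 to 4.0 mm and 6 at 4.0 to 4.2 mm, out of 12 and 21 in the whole strips, and lay next to each other in position.

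T cells were the next question, since they are the cells the peptide is known to attract. Cd3d was found in 218 mock cells and 1187 SspA+HDM cells, or 15.03 and 16.2 per mm in the mock strips and 66.6 and 87.9 per mm in the SspA+HDM strips. In SspA+HDM these cells carried 10724 CPM of Rac2, a leukocyte GTPase, against 791 CPM in all other cells, 2705 against 71.0 CPM of the coreceptor gene Cd8a and 2942 against 94.7 CPM of the checkpoint gene Ctla4. Only 0.191% of 4198 muscle cells had a Cd3d transcript. By cluster, 487 of the Cd3d-positive cells were epidermis-led (400 of them in cluster 3), 215 follicle-led and 469 elsewhere. No cluster was led by T cell genes, so many of these outlines held T cell and keratinocyte transcripts together, and 277 of the 1187 were also positive for 2610528A11Rik.

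Distance to Cd3d-positive cells differed little between positive and negative cells of the same cluster. In cluster 3 the median distance was 16.03 µm (quartiles 8.99 and 27.0) for 2149 positive cells and 16.2 µm (8.58 and 28.7) for 2066 negative cells. The share within 30 µm was 79.85% (78.1 to 81.5) for positive and 76.9% (74.98 to 78.7) for negative cells, and in the 2 strips 77.4% against 75.2% and 81.9% against 78.6%. The same measure was taken for the 64 genes found in 10% to 90% of cluster 3 cells. 2610528A11Rik ranked 11 of 64 with a difference of 2.99 percentage points, where the median gene had -0.49, the lowest -9.04 and Rac2, which T cells carry themselves, 16.3. When only Cd3d-positive cells outside epithelial clusters were used, the shares were 23.8% for positive and 23.8% for negative cells. With every cell thinned to 100 transcripts, which left 1357 positive cells, they were 80.6% and 76.6%. In cluster 7 the medians were 22.7 and 23.9 µm, and in cluster 4 they were 22.1 and 24.6 µm, with 65.3% (61.5 to 68.9) and 59.8% (57.7 to 61.8) within 30 µm.

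By distance band, the clusters differed close to Cd3d-positive cells. In cluster 3 it was 6153 CPM within 10 µm, 5647 CPM at 10 to 20 µm, 5986 CPM at 20 to 30 µm, 5536 CPM at 30 to 50 µm, 5049 CPM at 50 to 75 µm and 3954 CPM (3104 to 4963) at 75 to 150 µm. The last band held 103 cells, 86 of them in strip 1, where it was at 4201 CPM (3249 to 5345) and its interval overlapped those of all nearer bands of that strip. In cluster 7 the level was highest within 10 µm, at 3983 CPM (3526 to 4482), then 2909 CPM at 10 to 20 µm, 2381 CPM (2178 to 2598) at 20 to 30 µm, 3069 CPM at 30 to 50 µm and 2112 CPM (1552 to 2809) at 75 to 150 µm. Cluster 7 cells that held Cd3d themselves were at 2783 CPM (2059 to 3679.5). Its cells within 10 µm had a median of 229.5 transcripts, against 283 at 10 to 20 µm and 301.5 at 20 to 30 µm. Bands were not matched for transcripts per cell or distance from the dermis, and their part was not tested. In cluster 4 the level was 3350 CPM within 10 µm, 3529 CPM at 10 to 20 µm and 1587 CPM (888 to 2618) at 75 to 150 µm. Along the strips the number of Cd3d-positive cells per window and the cluster 3 level had r = 0.044 and 0.200 over 38 windows each. The window with the lowest level of each strip held 5 and 8 Cd3d-positive cells and that with the highest 18 and 26, where the medians were 13 and 16.5.

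**Figure D5:**
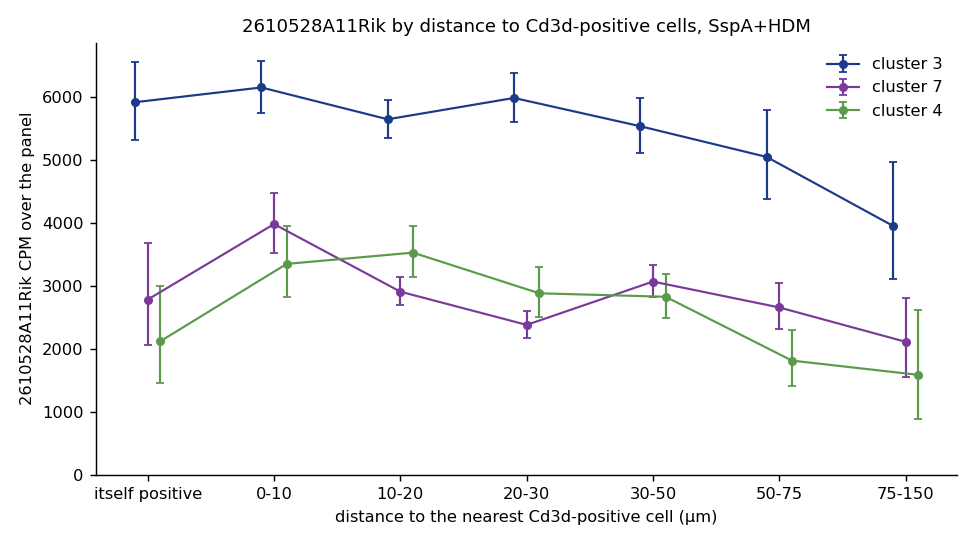
Level of 2610528A11Rik in SspA+HDM cells of clusters 3, 7 and 4, in CPM over the panel, by distance in µm to the nearest Cd3d-positive cell, with cells that hold Cd3d themselves at the left. Bars are 95% Poisson intervals. In cluster 3 the level runs from 6153 CPM within 10 µm to 3954 CPM at 75 to 150 µm, and cluster 3 is the highest of the 3 in every band.

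Seen from the Cd3d-positive cells, the nearest positive cell was closest for those of epidermis-led clusters and farthest for those of non-epithelial clusters. Cd3d-positive cells of epidermis-led clusters had the nearest positive cell at a median of 7.86 and 7.22 µm in the 2 strips, and Cd3d-negative cells of cluster 3 had it at 7.94 and 7.44 µm. Cd3d-positive cells of follicle-led clusters had it at 15.7 and 14.3 µm, and those of non-epithelial clusters at 22.8 and 21.9 µm. Cd3d-negative cells of cluster 1, which also lie in the dermis, had it at 29.9 and 24.7 µm, and those of macrophage-like cluster 9 at 42.3 and 33.4 µm. Distances from the epidermis differ among these cells, and their part in this order was not tested.

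The gene with the most similar pattern over the SspA+HDM section was Aqp3. Likeness was the correlation of log2(CPM + 50) over 2622 tiles of 50 µm with at least 200 transcripts. The tiles share their depth and their content of epithelium, so the values are descriptions. The highest were Aqp3 (r = 0.75), the cystatin-family gene Cstdc4 (0.71), the retinol-binding protein gene Rbp2 (0.68), the glucose carrier gene Slc5a1 (0.66) and the membrane protein gene Prom2 (0.64). Calm4, Krt16, Anxa8 and Serpinb5 were among the others of the first 10, with 0.61 to 0.60. Over 1479 tiles made of epithelial cells only, Aqp3, Cstdc4, Rbp2 and Slc5a1 were again the 4 highest, at 0.66, 0.65, 0.60 and 0.55, and 6 of the 10 remained among the first 10. The other basal genes Dsc3, a desmosomal cadherin, and Col17a1 fell to ranks 41 and 49 there, with r of 0.29 and 0.25. Of the T cell genes, Cd3d had r of 0.417 over all tiles (rank 40) and 0.413 over epithelial tiles (rank 20). Rac2 had 0.105 (rank 83) and 0.429 (rank 17), Cd8a 0.326 (rank 47) and 0.284 (rank 43), and Ctla4 0.218 (rank 61) and 0.130 (rank 69). Over the whole section Aqp3, Cstdc4, Rbp2, Slc5a1 and Krt16 exceeded their mock level by 2-fold or more, as did 14.7% of the 346 genes. Their ratios ran from 4.37-fold for Aqp3 to 89.9-fold for Cstdc4. Calm4, Prom2 and Serpinb5 were at 1.74, 1.355 and 1.11 of their mock level, and Anxa8 was at 0.741.

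Within cluster 3, positive and negative cells were set side by side over the 114 genes with enough transcripts, with the gene itself left out of the totals and 50 CPM added to both sides. The median ratio was 0.967. The highest was Slc34a2, a phosphate carrier, at 2032 CPM in positive and 1245 CPM in negative cells, a ratio of 1.61, with 1.596 and 1.595 in the strips. Ndufa4l2, a mitochondrial protein gene, followed at 19728 against 13173 CPM (1.496), then the stress gene Ndrg1 at 2828 against 1898 CPM (1.48) and the complement gene C3 (1.43). Ttn, Cenpf, Uox, Tspan8, Cxcr2 and Mettl7a2 were at 1.29 to 1.23. In cluster 7, whose cells the choice of these genes did not use, Ndufa4l2 was at 1.25 and Ndrg1 at 1.22, but Slc34a2 at 1.02 and C3 at 0.934. In cluster 4 the ratios were 2.10 for Slc34a2, 1.29 for Ndufa4l2, 1.16 for Ndrg1 and 1.15 for C3. Of the T cell markers, Ctla4 was at 0.510 in cluster 3, the lowest of the 114 genes, Rac2 at 0.646, Cd3d at 0.706 and Cd8a at 0.762. The other low genes were of several kinds, such as the protease gene Mmp9 at 0.529 and the pericyte gene Rgs5 at 0.556.

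Other genes of the pathway and of the epidermal response were taken from lists, of which the panel held few. The lists were chosen with earlier results of these data known, so counts over them are descriptions only. Of 18 genes of the GPR15 axis and T cell attraction, 4 were on the panel, and 2 of them passed 2-fold, beside 14.7% of the 346 genes, Cd8a at 4.14-fold and Rac2 at 2.14-fold. Cd3d was at 1.66-fold and Ctla4 at 0.904. Of 16 chemokine genes, 3 were on the panel, the monocyte chemoattractant gene Ccl12 at 2.76-fold, Ccl9 at 0.708 and the scavenger receptor gene Ackr3 at 0.629. Of 20 antimicrobial and alarm genes, 6 were on the panel and 4 of them passed 2-fold, beside 14.7% of the 346 genes. These were Stfa2l1 at 221-fold, Cstdc4 at 89.9-fold, Krt16 at 20.7-fold and Areg at 4.28-fold, while Pglyrp1 and Reg3g, genes of secreted antibacterial proteins, were at 1.38-fold and 1.17-fold. The median log2 ratio of the 6 was 3.23. None of 5 target genes of the aryl hydrocarbon receptor was on the panel.

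Keratinocyte genes as a whole did not share the ratio of 2610528A11Rik. Of the 3 basal genes on the panel, Col17a1 was at 0.784, Dsc3 at 0.920 and Aqp3 at 4.37 of the mock level. Of the 6 spinous genes, Krt16 was the only one past 2-fold, a share close to the 14.7% among all 346 genes. Sbsn, Serpinb5, Trim29 and S100a14 lay between 1.11 and 1.68, and Krt13 was at 0.376. Of the 7 granular genes, Cnfn was at 10.97-fold and Calm5 at 3.02-fold, Lor, Ivl, Asprv1 and Calm4 lay between 1.28 and 1.95, and Lce1m was at 0.141.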

How the data were processed

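The authors deposited, per section, a table of decoded transcripts and a table of cell outlines. Per the file headers each transcript has a gene, a position, a cell, its overlap with a nucleus and a quality score, whose lowest value for this gene was 5.48 in mock and 5.45 in SspA+HDM and whose highest was 40 in both. How transcripts were decoded and cells outlined is not given in the sources used here. Cell assignments were kept as deposited. No cell identifier was shared by the sections.

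Transcripts of score 20 or above were counted per cell. The panel had 2461475 in mock (a median of 103 per cell) and 8124205 in SspA+HDM (121 per cell), in 379 genes. Cells linked within 100 µm formed strips. Cells with at least 20 transcripts (15306 and 44282) were clustered together without 2610528A11Rik, with 30 principal components, 15 neighbours and Leiden at resolution 1 (scikit-learn 1.9.0, igraph 0.11.9, leidenalg 0.10.2). No doublet caller was run. A cluster of at least 100 cells was epithelial if a set of keratinocyte genes made up 10% or more of its transcripts. The set was Krt16, Sbsn, Ivl, Lor, S100a14, Dsc3, Trim29 and Serpinb5. A marker counted as detected at 2 times its median over clusters, and a name needed 3 detected markers. The surface was the 2nd percentile of epidermis-led and follicle-led cells together in 50-µm windows. The distance to the third nearest non-epithelial cell was added as a measure after the data were seen. Windows, thresholds for epithelium and follicle, and the low stretch were also set with the data in view.

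No test was run, because each group has 1 sample. Sums have exact Poisson, ratios exact conditional binomial and shares exact Clopper-Pearson intervals (scipy 1.17.1). Cells and strips were not used as replicates, and intervals cover counting error only. The interval, distance and depth functions were tested on simulated data. The named genes are the gene itself, the 10 most like it over tiles, the 10 with the highest ratio of positive to negative cells of the cluster with most transcripts, Cd3d, and the panel members of the gene lists and of the epidermal and T cell markers. 1 of the 10 most like genes is not reported here. The gene and these lists were chosen with earlier results of these data known. The name was matched to 1 RefSeq gene, and no position in a genome is given because the files name no build.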

Additional observations from a re-analysis of the deposited data

Results flagged for a closer look

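Below the quality minimum the SspA+HDM table held another 8742 transcripts of 2610528A11Rik, against 73 in mock, a signal outside the counts used above. Of those inside cells, 83.4% lay in epidermis-led clusters in SspA+HDM and 52.9% in mock.

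Outside all cell outlines lay 208 of its transcripts of sufficient quality in SspA+HDM, against 16 in mock. Of these, 16 and 1 were within 25 µm of an epithelial cell, and the median distance to one was 93.2 µm in SspA+HDM and 348 µm in mock.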

How the results depend on the processing

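Scaled to strip length instead of the panel total, the whole-section ratio was 148.5. Under the other 9 alternatives, the 4 pairs of strips included, it stayed between 41.8 and 62.5. The share of transcripts in epidermis-led clusters was 81.5% with no quality minimum, 80.5% over the nucleus and 80.9% with cells of at least 40 transcripts, against 79.6%. The ratio of the level at 40 to 60 µm depth to that in the outer 20 µm was 12.1 to 13.5. The share of positive epidermis-led cells was 15.2% from 2 transcripts, 20.7% after thinning to 100 transcripts and 24.2% at a quality minimum of 30. In mock these shares were 0.061%, 0.386% and 0.366%. The share of positive cluster 3 cells within 30 µm of a Cd3d-positive cell was 44.25% (negative cells 40.2%) with Cd3d-positive from 2 transcripts and 23.8% (23.8%) with those outside epithelial clusters, a difference of 0.013 percentage points. With positive from 2 transcripts it was 79.5% (78.0%). It was 77.4% and 81.9% in the strips alone and 77.8% (74.3%) without cells that held Cd3d themselves. The medians, 16.03 µm for positive and 16.2 µm for negative cells, changed order in strip 1 (17.25 and 16.8 µm) and with positive from 2 transcripts (16.5 and 15.95 µm). After thinning, an alternative chosen after seeing the data, it was 80.6% (76.6%). Of the 10 genes most like it, 6 remained in tiles of epithelial cells and 9 in tiles of 100 µm. No paired analysis was possible because each group has 1 sample. Mock counts limit all ratios, since 57 transcripts in cells carry the mock level.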
